A study of Mus musculus with 7 samples.

Results

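The genes described here are the 8 whose products are surface antigens used to tell mouse haematopoietic stem cells (HSCs) from multipotent progenitors by flow cytometry: Kit, Ly6a, Slamf1, Cd48, Cd244, Cd34, Flt3 and Procr. They were chosen by symbol, and all 8 were among the 24015 symbols of the deposited count table. Of the 8, 7 had counts and were among the 11506 genes tested. Cd244 had no count in any library and could not be tested. The study compared old with young HSCs of C57BL/6 mice, sorted from bone marrow as lineage-negative Sca-1+ c-Kit+ (LSK) cells that were CD150+ and CD48-, in 3 old and 4 young bulk RNA libraries. All libraries share the strain, the tissue and this gate, and no allele or agent is named. Neither the age of the mice nor the number of mice behind a library is stated in the labels. A p-value here thus reflects how far these libraries spread, part of which may be technical.

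HSCs sit at the top of blood formation and divide rarely, while the multipotent progenitors below them divide more and lose self-renewal stepwise. KIT, the receptor for stem cell factor, and SCA-1, the product of Ly6a, mark the LSK compartment that holds both. Within it, the SLAM family antigen CD150 (Slamf1) is kept by HSCs, and CD48 and CD244 appear on progenitors. CD34 and the cytokine receptor FLT3 are gained as mouse HSCs become progenitors, and EPCR, the protein C receptor encoded by Procr, is high on HSCs. The gate used the proteins KIT, SCA-1, CD150 and CD48 but measured no RNA, and it did not use CD244, CD34, FLT3 or EPCR. These are bulk libraries, so fewer cells that express a gene and less RNA per cell cannot be told apart in any value here.

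The libraries held 27369677 to 32401925 counts in old and 22203806 to 27146186 counts in young HSCs. Levels are CPM, read counts scaled to a common library size with TMM factors, and a library with no count of a gene could hold up to 0.0927 to 0.137 CPM of it, the worth of 3 counts. Because amplified cDNA was sequenced and molecular identifiers are not mentioned, such limits cover counting error only. Young 1 and young 2 stood apart on the first and second principal component, which held 27.7% and 21.5% of the variance. Over all tested genes the edgeR quasi-likelihood test with Benjamini-Hochberg adjustment called 29 genes (0.252%) at an adjusted p under 0.05, 0.235% higher and 0.0174% lower in old HSCs. All tested genes together had a median log2 fold change of -0.03.

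In the RefSeq annotation of GRCm38.p6, the SLAM family genes Cd244a (the current symbol of Cd244), Ly9, Slamf7, Cd48 and Slamf1 lie in this order on chromosome 1. RefSeq promoter windows, from 250 bases before to 50 bases after the start site, matched 7 of the 8 genes, all but Ly6a. Those printed below belong to Procr and Slamf1, which were higher in every old library than in any young one, and to Cd34 and Cd48, which were lower in every old library. Capitals mark matches, on either strand, to 6 motifs of haematopoietic and immediate early transcription factors and of the TATA box.
Procr promoter, chr2:155750967-155751266, plus strand: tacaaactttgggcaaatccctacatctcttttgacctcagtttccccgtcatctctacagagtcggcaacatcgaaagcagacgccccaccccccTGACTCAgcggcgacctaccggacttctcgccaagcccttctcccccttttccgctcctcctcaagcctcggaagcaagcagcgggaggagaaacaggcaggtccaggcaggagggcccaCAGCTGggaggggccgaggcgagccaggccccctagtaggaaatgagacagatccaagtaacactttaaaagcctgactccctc
Slamf1 promoter, chr1:171766882-171767181, plus strand: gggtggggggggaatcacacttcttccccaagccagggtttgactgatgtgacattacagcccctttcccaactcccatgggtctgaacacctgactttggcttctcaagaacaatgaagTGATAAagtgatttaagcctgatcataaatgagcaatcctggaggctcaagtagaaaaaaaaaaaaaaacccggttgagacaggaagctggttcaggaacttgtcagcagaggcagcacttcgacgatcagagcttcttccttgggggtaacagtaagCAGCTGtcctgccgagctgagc
Cd34 promoter, chr1:194938571-194938870, plus strand: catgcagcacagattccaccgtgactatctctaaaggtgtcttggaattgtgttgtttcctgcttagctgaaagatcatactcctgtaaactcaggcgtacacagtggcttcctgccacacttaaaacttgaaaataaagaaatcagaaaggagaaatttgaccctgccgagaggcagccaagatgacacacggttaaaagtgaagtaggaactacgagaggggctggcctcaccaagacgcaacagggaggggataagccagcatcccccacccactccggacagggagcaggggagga
Cd48 promoter, chr1:171681742-171682041, plus strand: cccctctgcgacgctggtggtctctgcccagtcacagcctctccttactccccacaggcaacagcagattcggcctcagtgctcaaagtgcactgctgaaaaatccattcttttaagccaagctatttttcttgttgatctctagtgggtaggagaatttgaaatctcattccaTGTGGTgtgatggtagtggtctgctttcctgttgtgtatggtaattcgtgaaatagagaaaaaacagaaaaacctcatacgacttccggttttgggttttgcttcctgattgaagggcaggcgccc

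The coordinates are those of GRCm38.p6, a later build than the mm9 of the counts. The Procr window held 1 AP-1 motif (TGACTCA), at -154 from the start site, and 1 E-box (CAGCTG) at -34. The Slamf1 window held 1 GATA motif (TGATAA) at -130 and 1 E-box at 29. The Cd48 window held 1 RUNX motif (TGTGGT) at -76. The Cd34 window held none of the motifs searched, which also included AGATAA, the PU.1 motif GAGGAA and TATAAA. Over 27025 promoter windows of the same length, 5.17% held the AP-1 motif, 16.1% the E-box, 19.0% a GATA motif (either form), 16.9% the RUNX motif, 28.3% the PU.1 motif and 14.2% the TATA motif. A match describes the letters of the window and was not tested as a binding site.

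Across the antigen genes, Procr rose in old HSCs, and no other passed the test over all genes. Of the 7 tested, 1 was called higher and 0 lower in edgeR, against 0.235% and 0.0174% of all tested genes, and limma-voom likewise called 1, against 0.435%. An unadjusted edgeR p under 0.05 was found for 6, against 9.12% of all tested genes. DESeq2 called 5, Procr and Ly6a higher and Cd34, Cd48 and Flt3 lower, against 3.75% of all tested genes (1.87% higher, 1.88% lower). Among the 4508 genes averaging 50 CPM or more, edgeR called 2, Procr higher and Cd34 lower, against 2.84% of those genes (1.82% higher, 1.02% lower). Groups did not overlap in 5 of the 7, where this held for 12.7% of all tested genes. Procr, Ly6a and Slamf1 were higher in every old library than in any young library, as were 7.55% of all tested genes. Cd34 and Cd48 were lower in every old library, as were 5.18% of all tested genes. Kit and Flt3 overlapped. Every Cd48 and Flt3 read came from young libraries, so these genes entered the test through that group and could only come out lower. Their places in the counts of DESeq2 calls and unadjusted p-values carry this limit, as does that of Cd48 among non-overlapping genes. The genes were chosen with results of these data known, so these shares describe them and are not evidence of a property of the group.

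**Figure D1:**
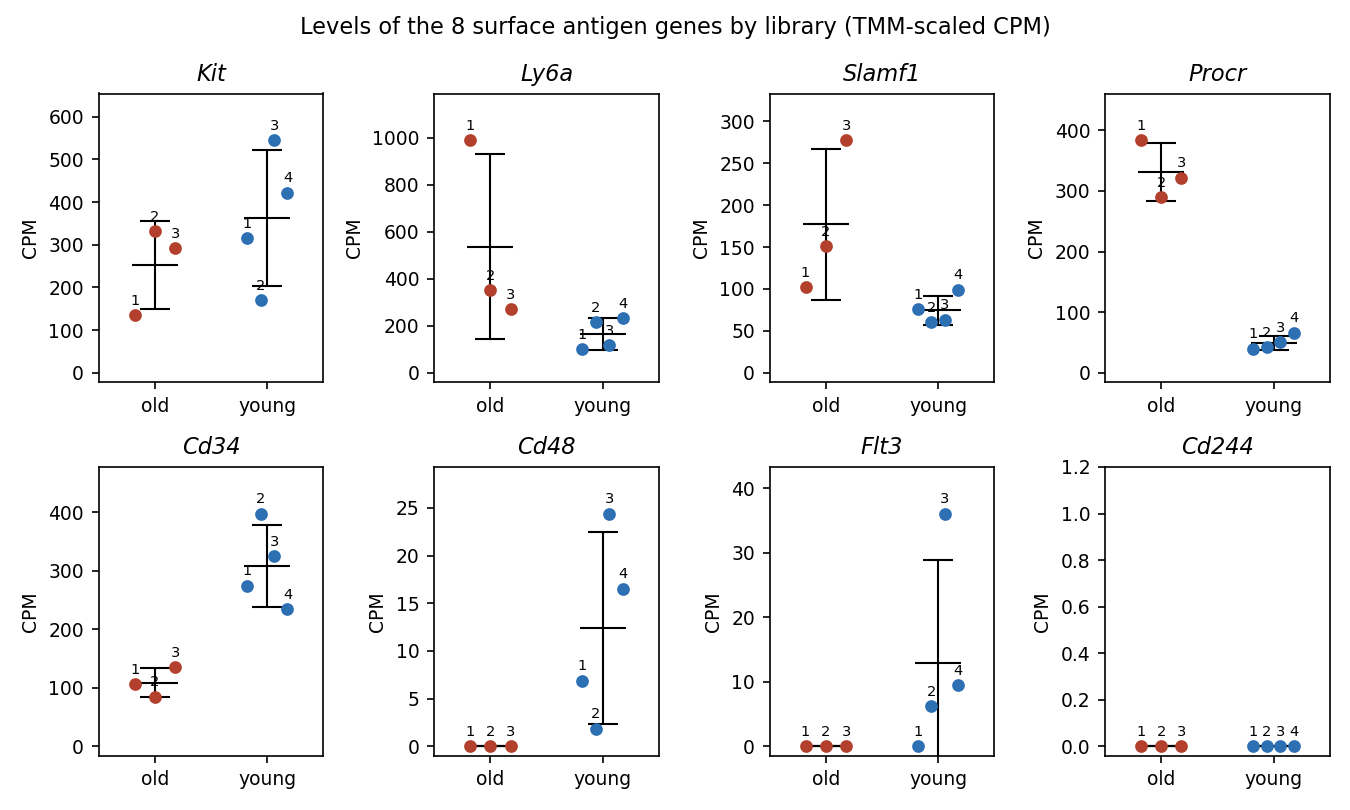
TMM-scaled CPM of each of the 8 antigen genes (vertical axes, from 0) in the 3 old (red, left) and 4 young (blue, right) libraries, numbered by replicate, with the mean and SD in black. Procr, Ly6a and Slamf1 sit higher in every old library, Cd34 and Cd48 lower, Kit and Flt3 overlap, and Cd244 is at 0 throughout.

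Kit encodes the receptor tyrosine kinase for stem cell factor and is the c-Kit of the LSK gate. Its level was 135, 332 and 292 CPM in old 1 to old 3, against 315, 170.1, 545 and 422 CPM in young 1 to young 4. The groups overlapped, with old 1 the lowest of all 7 libraries and young 3 the highest. Kit had a mean of 253 ± 104 CPM over the old libraries (SD, n = 3), against 363 ± 159 CPM over the young (SD, n = 4). The log2 fold change was -0.52 ± 0.42 (SE) with a 95% interval of -1.47 to 0.43 (adjusted p = 0.874, edgeR), so changes in either direction remain within it. Within each group Kit spread 2.45-fold (old) and 3.21-fold (young) from the lowest to the highest library. Kit is the antigen gene with the smallest estimated change among those tested.

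Ly6a encodes SCA-1, a GPI-anchored protein whose transcription is known to be raised by interferon. It stood at 989, 351 and 269.9 CPM in old 1 to old 3, against 101, 215, 117 and 233 CPM in young 1 to young 4. Every old library was above every young one, but old 1 stood far above old 2 and old 3, a spread of 3.67-fold. Ly6a stood at 537 ± 394 CPM over the old libraries, against 166 ± 67.2 CPM over the young, a log2 fold change of 1.69 ± 0.48 that missed the threshold (unadjusted p = 0.00599, adjusted p = 0.225, edgeR). Without old 1 the log2 fold change was 0.90 (adjusted p = 0.714, edgeR). DESeq2 called Ly6a higher in old HSCs (adjusted p = 0.0152). Ly6a has closely similar neighbours in its family, so single reads could be shared with them or lost.

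Ly6e, another GPI-anchored LY6 family member, showed the same order of groups with less spread. It had a mean of 2701 ± 888 CPM over the old libraries, against 1405 ± 296 CPM over the young (log2 fold change 0.94 ± 0.26, adjusted p = 0.218, edgeR), with old 1 again the highest at 3727 CPM. DESeq2 called Ly6e higher (adjusted p = 0.00591), as did the edgeR fit restricted to genes averaging 50 CPM or more (adjusted p = 0.0498). Cd59b, a LY6-domain inhibitor of complement, was low, with 1.87 ± 0.97 CPM over the old libraries, against 0.88 ± 0.31 CPM over the young (adjusted p = 0.948, edgeR). Of the 5 tested among 17 other LY6 family genes in the table, 4 had a positive and 1 a negative log2 fold change (median 0.94) and none passed in edgeR over all genes. Ly6d, Ly6f, Ly6h, Psca, Slurp1 and Gml had no count in any library.

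No gene of the interferon response passed in edgeR, and no score over them was tested. All 18 of that list were tested, 11 with a positive and 7 with a negative log2 fold change (median 0.07, against -0.03 for all tested genes), and none was called in edgeR. Their summed level was 6083, 4244 and 3358 CPM in old 1 to old 3, against 2461 to 3443 CPM in young HSCs, with old 1 the highest as for Ly6a. Chosen after its values were seen, the highest gene was Ifitm3, which encodes a membrane protein that restricts virus entry, at 2054 ± 798 CPM in old against 1013 ± 354 CPM in young libraries, with overlap (adjusted p = 0.333, edgeR). Gbp2, an interferon-induced GTPase, stood at 171 ± 51.6 CPM over the old libraries, against 72.5 ± 31.1 CPM over the young (adjusted p = 0.300, edgeR). Ifi27l2a, an interferon-induced mitochondrial protein, had the opposite order, with no count in any old library and 2.34 to 9.66 CPM in young HSCs (adjusted p = 0.191, edgeR), and DESeq2 called it lower (adjusted p = 0.00114). With no old count, Ifi27l2a entered the test through the young libraries alone and could only come out lower in old HSCs. The part of interferon in the level of Ly6a was not tested.

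Slamf1 encodes CD150, the SLAM family receptor that the sort required on every cell. Its level was 102, 151 and 278 CPM in old 1 to old 3, against 75.7, 60.5, 63.4 and 99.0 CPM in young 1 to young 4. The groups did not overlap, although old 1 was only just above young 4. Old libraries differed 2.72-fold among themselves and young libraries 1.64-fold. Slamf1 had a mean of 177 ± 90.5 CPM over the old libraries, against 74.7 ± 17.5 CPM over the young (log2 fold change 1.24 ± 0.37, 95% interval 0.42 to 2.07, adjusted p = 0.251, edgeR). Without old 3, the library with the most Slamf1, it was 0.76 (adjusted p = 0.702, edgeR). DESeq2 did not call it either (adjusted p = 0.0855).

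Cd48 encodes a GPI-anchored SLAM family ligand, and cells bearing it were excluded by the gate. No old library held a single Cd48 read. The young libraries held 157, 41, 677 and 476 reads, or 6.86, 1.87, 24.4 and 16.5 CPM in young 1 to young 4. Cd48 RNA was thus low in young HSCs but detected in all 4, and spread 13.1-fold among them. A limit of 3 counts per old library stood for 0.107 CPM on average. The mean of the young libraries was 116-fold this limit, and 78.8-fold without young 3. Such folds cover counting error in old libraries and leave out the spread of the young ones. The edgeR log2 fold change was -11.4 with a 95% interval of -16.8 to -5.96, which includes smaller changes than these folds. The edgeR test did not call Cd48 (adjusted p = 0.159), while DESeq2 did (adjusted p = 2.71e-06). Cd48 passed the filter on low counts only through the young libraries, so a difference among tested genes of this kind is built in.

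Cd244 encodes a SLAM family receptor that binds CD48 and is known from natural killer cells and progenitors. It had no count in any of the 7 libraries, which allows at most 0.0927 to 0.115 CPM in old and 0.104 to 0.137 CPM in young libraries. No fold can be given.

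No gene of the SLAM family passed in edgeR. Of 10 genes of the family and its adaptors, 7 had a count and 3 were tested, 1 with a positive and 2 with a negative log2 fold change, and none passed. Cd84, a self-ligand SLAM receptor, stood at 192 ± 46.5 CPM over the old libraries, against 119 ± 24.5 CPM over the young (adjusted p = 0.436, edgeR), and its groups overlapped. Fyn, the kinase that acts below SLAM receptors in lymphocytes, had a mean of 44.3 ± 28.2 CPM over the old libraries, against 61.9 ± 41.4 CPM over the young (adjusted p = 0.969, edgeR). Slamf9 and the adaptor genes Sh2d1a and Sh2d1b2 had no count in any library.

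Procr encodes EPCR, the receptor of protein C on endothelium and a marker of HSCs. It held 384, 289.5 and 322 CPM in old 1 to old 3, against 40.1, 42.3, 50.2 and 66.0 CPM in young 1 to young 4. The groups lay far apart, with no overlap. Both groups were tight, with a coefficient of variation of 14.4% in old and 23.6% in young HSCs, the smallest of the tested antigen genes in old libraries. Procr stood at 332 ± 47.8 CPM over the old libraries, against 49.7 ± 11.7 CPM over the young, 6.68-fold higher (log2 fold change 2.74 ± 0.26, 95% interval 2.16 to 3.32, adjusted p = 0.00643, edgeR). By p-value it ranked as number 3 of the 11506 tested genes. The call was lost without old 1 (adjusted p = 0.0558, edgeR), without old 3 (adjusted p = 0.0503, edgeR) and without young 1 and young 2 together (adjusted p = 0.0523, edgeR), where the log2 fold change was 2.62, 2.76 and 2.51. It was also lost with the replicate number as a block (log2 fold change 2.90, adjusted p = 0.251, edgeR), a fit that called 0 of all tested genes. Young 4 has no old library of the same number, so it did not inform the fold change of that fit.

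Partners of EPCR in the protein C pathway did not pass. Of 17 genes, 14 had a count and 12 were tested, 5 with a positive and 7 with a negative log2 fold change, and none was called in edgeR. F2rl3, a thrombin receptor (PAR4), had a mean of 149 ± 63.8 CPM over the old libraries, against 69.7 ± 31.8 CPM over the young (adjusted p = 0.439, edgeR). F5, coagulation factor V, stood at 0.14 ± 0.25 CPM over the old libraries, against 6.81 ± 9.57 CPM over the young, the young value coming mostly from young 3 (21.2 CPM, adjusted p = 0.572, edgeR). Chosen after their values were seen, F2r, the receptor PAR1 through which EPCR-bound protein C signals, had a mean of 56.5 CPM in old against 62.4 CPM in young libraries, and Thbd, thrombomodulin, 8.35 CPM in old against 3.82 CPM in young libraries. Pros1 and F2rl2 were chosen likewise. Pros1 was higher in every old library, with a mean of 80.4 CPM in old against 21.6 CPM in young libraries (adjusted p = 0.824, edgeR). F2rl2 was lower in every old library, as was F5, with a mean of 5.20 CPM in old against 33.6 CPM in young libraries (F2rl2, adjusted p = 0.685, edgeR). Of all tested genes, 7.55% were higher and 5.18% lower in this way. Proc, which encodes protein C itself, had no count in any library.

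EPCR is also known from endothelium, so endothelial markers were measured beside it. Of 9 such genes, 8 had a count and 5 were tested, and none was called in edgeR. Their summed level was 263 to 340.1 CPM in old and 201 to 302 CPM in young libraries, most of it Egfl7, which HSCs are also known to express and which had a mean of 233 ± 25.5 CPM over the old libraries, against 195 ± 23.7 CPM over the young (adjusted p = 0.869, edgeR). Cdh5 and Stab2 had counts in young 1 alone (4.07 CPM and 11.5 CPM), Flt4 in old 1 alone (2.64 CPM), and Sox17 in no library. Kdr reached at most 4.17 CPM in an old and 7.92 CPM in a young library. Cldn5 spread from 11.3 to 63.9 CPM in old and 0 to 12.9 CPM in young libraries (adjusted p = 0.799, edgeR). The part of such cells in the level of Procr was not tested.

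Cd34 encodes a sialomucin that is low or absent on long-term HSCs of adult mice and gained by progenitors. Its level was 106, 85.0 and 135 CPM in old 1 to old 3, against 275, 398, 325 and 234 CPM in young 1 to young 4. The highest old library lay well below the lowest young one. Cd34 stood at 108 ± 25.0 CPM over the old libraries, against 308 ± 70.4 CPM over the young (log2 fold change -1.50 ± 0.27, 95% interval -2.12 to -0.89). In edgeR over all genes it ranked as number 46 and missed the threshold (unadjusted p = 3.27e-04, adjusted p = 0.0819). It was called lower in old HSCs in the edgeR fit restricted to the 4508 genes averaging 50 CPM or more (adjusted p = 0.0112) and by DESeq2 (adjusted p = 2.97e-05). Without 1 library at a time, the log2 fold change stayed between -1.69 and -1.36 (adjusted p of 0.0957 to 0.336, edgeR).

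Emcn and Podxl, which encode other sialomucins, were higher in every old library than in any young one, without passing. Emcn, endomucin, held 76.4, 99.5 and 113 CPM in old 1 to old 3 and 50.9 to 70.3 CPM in young libraries (adjusted p = 0.524, edgeR). Podxl, podocalyxin, had a mean of 10.2 ± 5.51 CPM over the old libraries, against 1.18 ± 1.99 CPM over the young (adjusted p = 0.777, edgeR). Of the 4 tested genes of this family and its partners, 3 had a positive and 1 a negative log2 fold change, and none was called in edgeR.

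Flt3 encodes the receptor of FLT3 ligand and marks lymphoid-primed progenitors. No old library held a Flt3 read, and neither did young 1. The other young libraries held 137, 1001 and 274 reads, or 6.24, 36.1 and 9.52 CPM in young 2 to young 4. Old and young groups overlapped at 0, and young 3 held most of the signal. Flt3 averaged 13.0 ± 15.9 CPM in young HSCs. This mean was 121-fold the same limit of 3 counts per old library, or 49.2-fold without young 3. Such folds cover counting error in old libraries and leave out the spread of the young ones. The edgeR log2 fold change was -11.4 with a 95% interval of -19.0 to -3.88, which includes smaller changes than these folds. Flt3 missed the threshold in edgeR (adjusted p = 0.297) and passed in DESeq2 (adjusted p = 9.78e-04). As for Cd48, it passed the filter on low counts through young libraries only.

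Young 3 was also the library with the most Cd48 and the most Kit, so it led 3 of the 8 antigen genes. Markers of lymphoid-primed progenitors were mostly low or undetected. Of 12 such genes, 6 had a count, and Dntt, Rag1, Rag2, Il7r, Ccr9 and Ccr7 had none in any library. The list summed to 363 to 576 CPM in old and 457 to 646 CPM in young libraries, and to 487 CPM in young 3, within the range of the other young libraries. Satb1, a chromatin organizer of lymphoid cells named after its values were seen, had no count in the old libraries, young 1 or young 2, 16.1 CPM in young 3 and 0.035 CPM in young 4, and was not tested. Lsp1, a leukocyte actin-binding protein, made up most of it, with 261 ± 96.7 CPM over the old libraries, against 268 ± 99.2 CPM over the young (adjusted p = 0.992, edgeR). Of the 5 tested, 1 had a positive and 4 a negative log2 fold change, and none was called in edgeR. Their part in the level of Flt3 was not tested.

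KIT and FLT3 share a set of signalling proteins, of which 1 passed. Among 39 genes of this signalling, 37 were tested, 15 with a positive and 22 with a negative log2 fold change (median -0.17), and 1 was called higher, where 0.235% of all tested genes were. The called gene was Pik3r1, the p85 alpha regulatory subunit of PI3-kinase, which binds activated KIT. It held 277, 336 and 373 CPM in old 1 to old 3, against 133, 107, 132 and 105 CPM in young 1 to young 4, with no overlap. Its log2 fold change was 1.46 ± 0.22 (adjusted p = 0.0457, edgeR), and it passed in none of the 7 fits without 1 library (adjusted p of 0.0536 to 0.253, edgeR). Chosen after their values were seen, the ligand genes differed in detection: Kitl, stem cell factor, had no count in any library, and Flt3l, the FLT3 ligand, stood at 50.6 CPM over the old libraries, against 28.2 CPM over the young (adjusted p = 0.834, edgeR).

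Compared per kilobase of exon (exon lengths from GENCODE M21 on GRCm38, not the annotation of the counts), Ly6a was the most abundant antigen gene in all 7 libraries. In old HSCs it averaged 446 ± 327 CPM per kilobase, followed by Procr at 163 ± 23.5, Slamf1 at 28.7 ± 14.7, Kit at 28.4 ± 11.6 and Cd34 at 14.9 ± 3.43 CPM per kilobase. Procr was the second most abundant in every old library, and Cd34 the lowest of those detected. Slamf1 and Kit did not differ beyond their spread, and old 2 had them in the other order from old 1 and old 3.

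The order differed in young HSCs. Ly6a averaged 138 ± 55.7 CPM per kilobase there, followed by Cd34 at 42.2 ± 9.66, Kit at 40.7 ± 17.9, Procr at 24.4 ± 5.77, Slamf1 at 12.1 ± 2.85, Cd48 at 10.4 ± 8.45 and Flt3 at 2.10 ± 2.58 CPM per kilobase. Cd34, Kit and Procr exchanged places between young libraries, as did Slamf1 and Cd48 in young 3, so these neighbours did not differ beyond their spread. Procr was above Cd34 in all 3 old libraries, and below Cd34 in 3 of 4 young libraries. In young 4 the levels were 32.5 CPM per kilobase for Procr and 32.1 for Cd34.

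**Figure D2:**
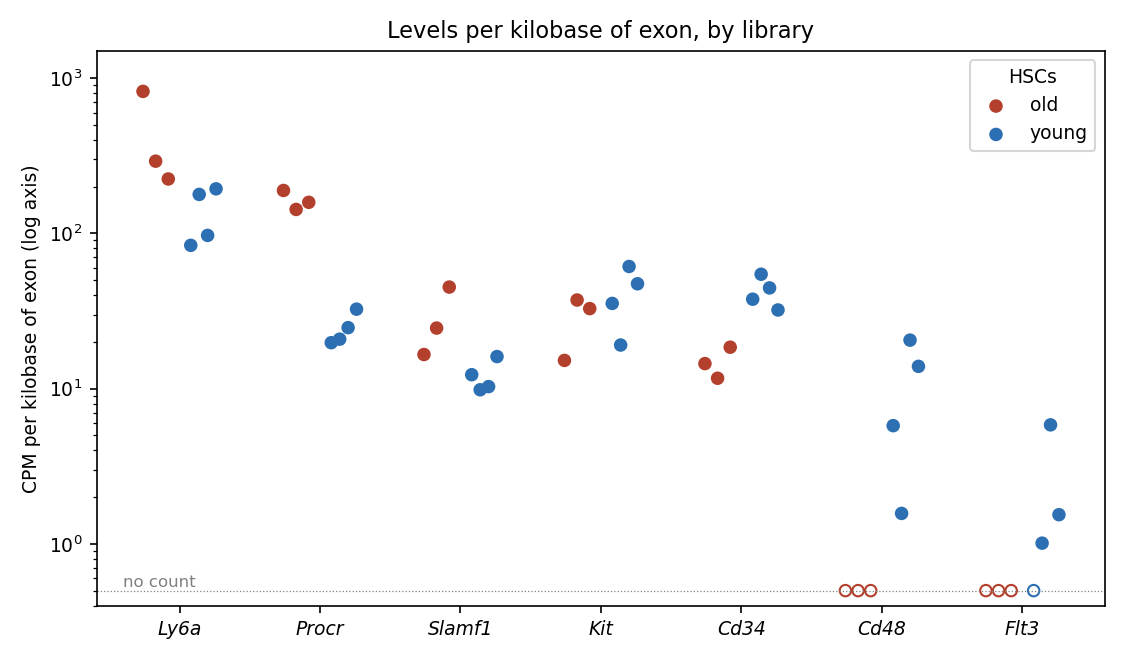
CPM per kilobase of exon (log axis) of the 7 detected antigen genes in old (red, left of each pair) and young (blue) libraries, each point 1 library. Open circles on the dotted line stand for libraries with no count, which are the 3 old libraries for Cd48 and Flt3 and young 1 for Flt3.

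Ratios of read counts within a library do not depend on library scaling, and set the antigen genes against each other. The ratio of Procr to Cd34 reads was 3.63, 3.41 and 2.39 in old 1 to old 3, against 0.146, 0.106, 0.155 and 0.282 in young 1 to young 4. On the log2 scale this averaged 1.63 ± 0.33 in old and -2.63 ± 0.59 in young HSCs, a difference of 4.26. The ratio of Slamf1 to Cd34 reads was 0.966, 1.78 and 2.06 in old libraries and 0.152 to 0.423 in young libraries, a log2 difference of 2.65. Neither ratio overlapped between the groups. This follows from the single genes, as Procr and Slamf1 were higher and Cd34 lower in every old library.

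Procr and Slamf1 are both known to be higher on HSCs than on progenitors. The ratio of Procr to Slamf1 reads was 3.76, 1.92 and 1.16 in old 1 to old 3 and 0.530 to 0.791 in young libraries. The ratio of Slamf1 to Kit reads, both antigens that the gate selected for, was 0.754, 0.456 and 0.951 in old 1 to old 3 and 0.116 to 0.356 in young libraries. The ratio of Ly6a to Kit reads overlapped, with 7.31, 1.06 and 0.925 in old libraries and 0.214 to 1.26 in young libraries. The ratios of Cd34 to Kit and of Procr to Ly6a overlapped as well, so that 5 of the 8 ratios computed did not. Among these 5, the ratios of Procr and Slamf1 to Cd34 could not overlap, given the levels of the single genes. Because each ratio combines genes that were chosen with results known, no test was made.

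**Figure D3:**
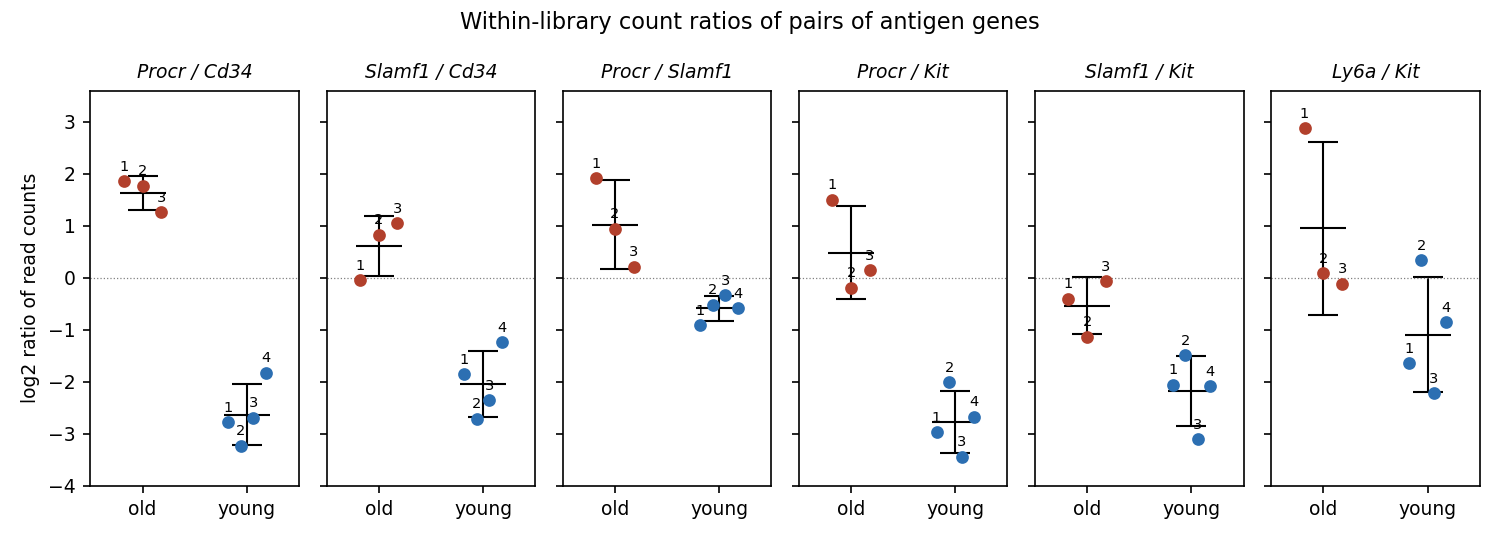
Log2 ratio of read counts of pairs of antigen genes within each library, old (red, left) and young (blue, right), numbered by replicate, with mean and SD in black. The old libraries lie above the young in 5 of the 6 ratios shown, with the widest gap for Procr to Cd34, and in 5 of the 8 computed. The ratios of Procr and Slamf1 to Cd34 could not overlap, given the levels of the single genes.

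Single libraries weighed differently on each gene. Leaving out 1 library at a time moved the log2 fold change of Procr between 2.62 and 2.91 and that of Slamf1 between 0.76 and 1.52. That of Ly6a ranged from 0.90 to 2.01 and that of Kit from -0.79 to -0.22. No antigen gene changed direction in any of these fits, in the other scalings or in the other tests. In 5 of the 7 fits without 1 library, Procr passed the threshold, and no other antigen gene passed in any of them.

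**Figure D4:**
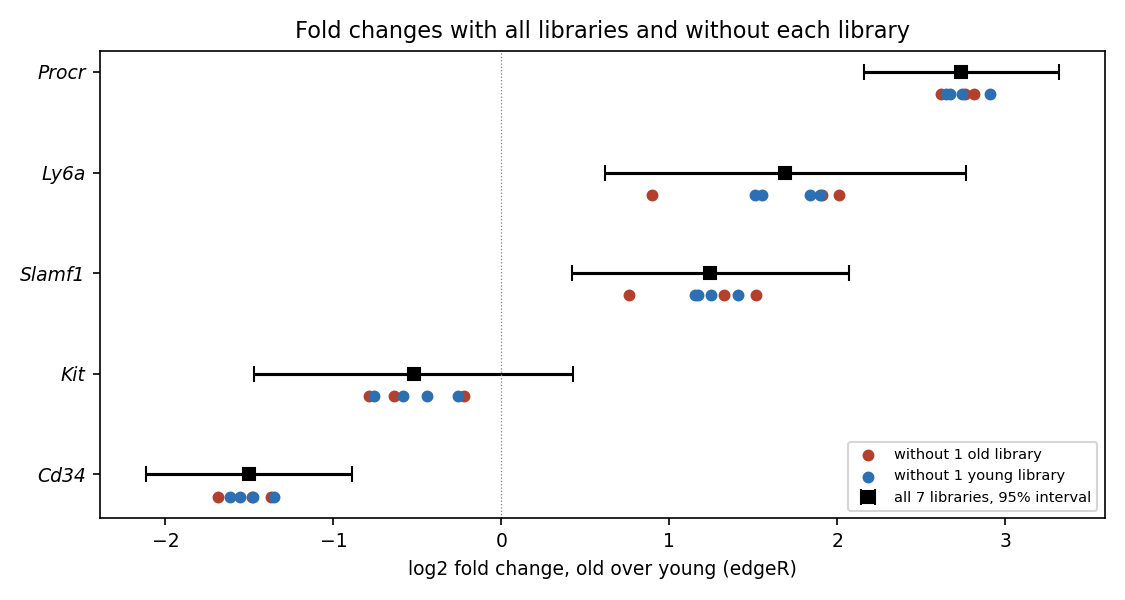
Log2 fold change of old over young HSCs (edgeR) for 5 antigen genes, with all 7 libraries (black squares, unadjusted 95% interval) and without 1 old (red) or 1 young (blue) library. The point of Ly6a without old 1 (0.90) and that of Slamf1 without old 3 (0.76) stand apart from the others of their gene.

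The genes whose pattern over the 7 libraries was most like that of each antigen gene were found by Pearson's r of log2 CPM among the 8286 or 8287 genes averaging 10 CPM or more. The values describe these libraries only and carry no test. Where an antigen gene differed between the groups, genes picked for following it tend to differ in the same direction. The calls given for them are thus no separate result. Procr was followed most closely by Sdpr, the caveola protein cavin-2 (r = 0.9995), and Sqrdl, a mitochondrial sulfide oxidase (r = 0.990). Sdpr held 379, 303 and 341 CPM in old 1 to old 3 and 78.0 to 107 CPM in young libraries (log2 fold change 1.93, adjusted p = 0.0105, edgeR). Sqrdl was also called higher in old HSCs (adjusted p = 0.0457, edgeR).

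Cd34 was followed by Sptan1, alpha-II spectrin (r = 0.981), and Rbl1, the retinoblastoma-family protein p107 (r = 0.971). Sptan1 had a mean of 15.4 ± 3.50 CPM over the old libraries, against 55.6 ± 11.8 CPM over the young (adjusted p = 0.218, edgeR), and DESeq2 called it lower (adjusted p = 0.00346). Slamf1 was followed by Camk1, a calmodulin-dependent kinase (r = 0.970), and Atp6ap1, a subunit of the vacuolar proton pump (r = 0.952). Ly6a was followed by Tceal8 (r = 0.988) and by B2m, the light chain of MHC class I (r = 0.974), which held 8149 CPM in old 1 against 3253 and 3818 CPM in old 2 and old 3 and 1146 to 2273 CPM in young libraries (adjusted p = 0.176, edgeR). B2m passed in DESeq2 (adjusted p = 0.0375) and among genes averaging 50 CPM or more (adjusted p = 0.0321, edgeR). Kit was followed by Ccnl2, a cyclin of RNA processing (r = 0.984). Cd48 was followed by Fam105a (r = 0.994) and the RNA-binding protein gene Hnrnpd (r = 0.981), and Flt3 by Lrrc8c, a volume-regulated channel subunit (r = 0.956), and Traf2, an adaptor of TNF receptors (r = 0.944). After each group was centred, r was lower for most of these genes, at 0.983 for Sdpr, 0.824 for Sqrdl, 0.830 for Sptan1, 0.742 for Rbl1 and 0.814 for Hnrnpd.

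Other antigens used to find HSCs were measured beside these 8. Of 25 such surface antigen genes, all had a count in some library and 23 were tested, 16 with a positive and 7 with a negative log2 fold change (median 0.25), and none was called in edgeR. Alcam, the adhesion molecule CD166, held 97.1, 70.8 and 133 CPM in old 1 to old 3, against 6.52 to 47.3 CPM in young libraries (adjusted p = 0.360, edgeR). Itga2b, the integrin CD41 of megakaryocytes and some HSCs, stood at 7.17 ± 3.27 CPM over the old libraries, against 47.7 ± 28.4 CPM over the young (adjusted p = 0.290, edgeR), and its groups overlapped. DESeq2 called Itga2b lower (adjusted p = 0.0167). All 11 genes of the HSC gene list, among them Hlf, Mecom and Fgd5, were detected and tested, 7 with a positive and 4 with a negative log2 fold change, and none was called in edgeR. Mecom, a transcription factor gene chosen after its values were seen, had a mean of 134 ± 23.1 CPM over the old libraries, against 66.1 ± 29.5 CPM over the young (adjusted p = 0.397, edgeR). Pdzk1ip1, chosen likewise, stood at 890 ± 272 CPM in old against 226 ± 92.9 CPM in young libraries (adjusted p = 0.0760, edgeR). The 4 with a negative log2 fold change were Hlf, Ctnnal1, Tek and Slc22a3.

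Several surface antigens of committed progenitors were not detected. Of 19 genes, Il7r, Csf1r, Cd33, Ccr9, Ccr2 and Il1rl1 had no count in any library, and 11 were tested, 3 with a positive and 8 with a negative log2 fold change (median -0.47), none called in edgeR. Cd24a, the heat-stable antigen, held 360.4, 235 and 630 CPM in old 1 to old 3 and 127 to 239 CPM in young libraries, overlapping between old 2 and young 4 (adjusted p = 0.242, edgeR). DESeq2 called Cd24a higher (adjusted p = 0.0430). Fcgr2b, an inhibitory Fc receptor, had a mean of 0.041 ± 0.071 CPM over the old libraries, against 7.79 ± 10.2 CPM over the young (adjusted p = 0.466, edgeR), with 22.7 CPM in young 2.

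Antigens of mature lineages were low apart from Klrb1c in old libraries. They summed to 109 to 238 CPM in old and 0 to 22.2 CPM in young libraries, nearly all of it Klrb1c in the old. Of 9 lineage antigen genes in the table, Cd3e, Cd8a and Ms4a1 had no count and 1 was tested. That gene, Klrb1c, encodes NK1.1, and held 109, 238 and 186 CPM in old 1 to old 3, against 0 in young 1 to young 3 and 12.1 CPM in young 4 (adjusted p = 0.324, edgeR). It passed only in the fit without young 4 (adjusted p = 0.0104, edgeR), which leaves no young library with a count, and Klrb1c entered the test through the old libraries. The other 6 fits without 1 library gave an adjusted p of 0.284 to 0.604 (edgeR), and DESeq2 gave 0.465. Of the 9 natural killer cell markers, Ncr1, Klrd1, Klre1, Gzma, Gzmb and Prf1 had no count in any library. The list summed to 213 to 272 CPM in old and 65.3 to 381 CPM in young libraries, with Klrb1c the highest gene in old libraries and Nkg7 over all libraries, at 70.7 ± 43.8 CPM over the old libraries, against 184 ± 137 CPM over the young (adjusted p = 0.605, edgeR).

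Markers of neutrophils summed to 549.9 to 791 CPM in old and 112 to 230.3 CPM in young libraries, most of it Prtn3, proteinase 3 of primary granules. Prtn3 rose to 643 ± 115 CPM in old HSCs, against 151 ± 43.8 CPM over the young libraries (log2 fold change 2.10 ± 0.27, adjusted p = 0.0242, edgeR), and passed in 2 of the 7 fits without 1 library. Of 11 such genes in the table, 3 were tested, 1 (Prtn3) with a positive and 2 with a negative log2 fold change. Mpo had no count in old libraries, 24.5 CPM in young 1 and 7.88 CPM in young 2. Elane held at most 9.31 CPM in any library, and neither was tested. Monocyte and macrophage markers summed to 887 to 1439 CPM in old and 747 to 1372 CPM in young libraries, mostly Lyz2, while Csf1r, Ccr2 and Cx3cr1 had no count. Their part in the levels of the antigen genes was not tested.

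The remaining marker lists gave no gene called in edgeR, and the megakaryocyte list holds Itga2b, which DESeq2 called lower. Megakaryocyte markers summed to 232 to 436 CPM in old and 352 to 592 CPM in young libraries, with Pf4 the highest by its mean over all libraries. The mean of Pf4 was 77.5 CPM in old and 140 CPM in young libraries, and in old libraries that of Gp9 was higher. Log2 fold changes in this list were negative for 6 tested genes and positive for Vwf and Gp9, named after their values were seen. Both stood higher in each old library than in all young ones. Vwf, with a mean of 67.5 CPM (old) and 31.0 CPM (young), had an adjusted p of 0.390 (edgeR). For Gp9 the means were 89.3 CPM (old) and 79.2 CPM (young). Erythroid markers summed to 11.1 to 49.3 CPM in old and 73.7 to 109.7 CPM in young libraries, with Epor the highest and no haemoglobin counts under the symbols Hbb-b1 and Hba-a1. B cell markers summed to 73.2 to 208 CPM in old and 121 to 184 CPM in young libraries, led by Cd79b, with Ms4a1, Pax5 and Ebf1 at 0. T cell markers reached at most 60.2 CPM in old and 68.6 CPM in young libraries, led by Lck, with Cd3e at 0. Mast cell and basophil markers summed to 20.2 to 66.7 CPM in old and at most 10.9 CPM in young libraries, led by Cpa3. Stromal markers reached at most 8.67 CPM in old and 6.05 CPM in young libraries, led by Col1a2.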

How the data were processed

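Polyadenylated RNA of the sorted cells was turned into cDNA by Smart-seq+ and into libraries with Nextera XT, a kit that does not mark strand, per the labels' protocols. The submitters' processing notes name Trimmomatic, FastQC, STAR, featureCounts and build mm9; which versions, annotation and strand setting were used was not given in the sources used here. Values as deposited are unnormalized read counts by gene symbol, with a column for each library, matched to samples by title.

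The main test was that of edgeR 4.0.16 under R 4.3.3 (filterByExpr with minimum count 10 and minimum total 15, TMM, glmQLFit and glmQLFTest, 2-sided, group as the only term, Benjamini-Hochberg over 11506 genes). SE is the log2 fold change over the square root of F, and 95% intervals are unadjusted. DESeq2 1.42.0 and limma 3.58.1 (voom) were alternatives. On simulated counts for this comparison (11506 genes) 50 genes were altered at each size, and the test found 0 at 2-fold, 13 at 4-fold, 16 at 8-fold and 24 at 16-fold. Of its 54 calls, 1 was false.

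The members, 21 gene lists (9 of pathways, 12 of cell types) and alternatives were chosen with earlier results of these data known. Named genes are all members, the called genes of each pathway list or else its 2 with the smallest p, the highest gene of each cell type list, and the 2 genes most like each tested member, leaving out predicted genes. Of the genes this rule names, 2 are not reported here. Genes named beyond this are listed with a list's absent or summed members, or are said to be chosen after their values were seen.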

Additional observations from a re-analysis of the deposited data

Results flagged for a closer look

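In 5 of 47 named genes checked, 1 of the 4 young libraries lay far from the other 3, by Dixon's criterion at the 95% level, where chance flags about 1 in 20 groups. That rate does not apply to Klrb1c and Col1a2, where the other 3 values are 0 and any count is flagged. Klrb1c had 12.1 CPM in young 4 and no count in the other young libraries. Col1a2, a stromal collagen gene, had 5.91 CPM in young 4 and no count in the others, and Podxl 4.14 CPM in young 4 against 0 to 0.54 CPM. F5 had 21.2 CPM in young 3 against 1.75 to 2.40 CPM. Traf2 had 43.7 CPM in young 1 against 86.7 to 95.5 CPM. None of the 8 antigen genes was among them.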

How the results depend on the processing

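With all libraries edgeR called 29 genes and 1 antigen gene. DESeq2 called 431 genes and 5 antigen genes, limma-voom 50 genes, library size alone 16, and the fit to genes averaging 50 CPM or more 128 genes and 2 antigen genes. Without 1 library the number of calls was 2 to 18, and 0 to 1 antigen genes were called. Without young 1 and young 2 together, a setting chosen after seeing the data, 7 genes and 0 antigen genes were called (6 at an unadjusted p under 0.05 in edgeR). Same-numbered old and young libraries did not deviate together (correlations of 0.025, -0.074 and -0.014). So few values cannot decide whether such libraries shared a preparation, which was not tested. With the replicate number as a block edgeR called 0 genes (694 at an unadjusted p under 0.05) and 0 antigen genes (6 unadjusted). No antigen gene changed direction. Those of other named genes that did were close to 0: Cd79b (-0.037 with voom, -0.023 with library size alone, -0.071 without young 1 and young 2, and -0.15 to 0.39 without 1 library), Lsp1 (0.0031 with the block, 0.019 without young 1 and young 2, -0.25 to 0.22 without 1 library), and, without young 1 and young 2, Lck (0.040). The cause was not tested. With library size alone, all tested genes had a median of -0.12 (log2). Flt3 had no value in fits without young 2, young 3 or young 4, where it failed the filter, nor did Cd48 and Flt3 among genes of at least 50 CPM. Depth limited the low antigen genes: 3 counts stand for up to 0.137 CPM.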
